A study of Caenorhabditis elegans with 3 samples.

Results

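The cytosolic ribosomal protein genes of the nematode Caenorhabditis elegans were examined as targets of PQM-1 in L4 larvae. The set held every nuclear protein-coding gene named rpl-, rps- or rla- in the Ensembl annotation of WBcel235, which is the ce11 build. It came to 81 of 19973 genes. Of these, 47 encode proteins of the large subunit (rpl-), 31 encode proteins of the small subunit (rps-) and 3 encode the acidic stalk proteins (rla-0, rla-1 and rla-2). The naming rule uses no measured value, though the gene class was chosen for study with earlier results of these data known.

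PQM-1 is a zinc finger transcription factor known for its link to the TGATAAG element, called the DAF-16-associated element, and for its opposition to the FOXO factor DAF-16 in insulin signalling. Its binding sites were mapped by ChIP-seq (sequencing of DNA recovered with the tagged protein) from whole organisms, L4 larvae of both sexes. The strain, OP201, has the genotype unc-119(tm4063) III; wgIs201, and its PQM-1 carries GFP and FLAG at the C-terminus. There was 1 group, with 2 biological replicates in 3 libraries, of which 2 belonged to replicate 1 and 1 to replicate 2. No second genotype, age or treatment was measured, and a whole-worm profile cannot tell in which tissue a site was bound. The signal of a peak is the authors' own value against a control alignment, on a scale that the sources used here do not state, and the depth of the libraries is unknown.

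Cytosolic ribosomes translate all messages of the nuclear genome. Their proteins are made in equal numbers from single or duplicated genes, and these genes are among the most strongly expressed in growing cells. Ribosomal protein output is a main target of nutrient and growth signalling in eukaryotes. Many C. elegans transcripts receive a spliced leader, so an annotated gene start is often the splice acceptor and transcription can begin further upstream. The distance from the annotated start to the start codon had a median of 8 bp over the 81 genes, and was at most 50 bp in 74.

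A promoter was taken as 1000 bp upstream to 200 bp downstream of the annotated start. In the optimal list, which the authors thresholded by reproducibility between replicates, 37 of the 81 ribosomal protein genes had a summit there (45.7%, exact 95% interval 34.6 to 57.1%), against 12.8% of all protein-coding genes. Small subunit genes had one in 18 of 31 cases (58.1%) and large subunit genes in 19 of 47 (40.4%). Their exact intervals, 39.1 to 75.5% and 26.4 to 55.7%, overlapped. None of the 3 stalk genes had one. Each of the 37 genes had a single summit. These summits belonged to 35 distinct peaks, because rps-10 and rpl-24.1 shared 1 peak and rpl-39 and rps-30 shared another. Such intervals cover counting error only.

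The sequence beneath these peaks is shown for 6 of them, 201 bp centred on the summit and read along the strand of the ribosomal protein gene, from the WBcel235 genome. The first 3 are the strongest peaks of the set: rpl-3 at chrIII:3867471-3867671 on the plus strand, rpl-20 at chrIV:4749962-4750162 on the minus strand and rpl-15 at chrIV:654812-655012 on the minus strand. rpl-11.2 (chrX:2242832-2243032, minus strand) and rps-23 (chrIV:12391253-12391453, minus strand), whose product sits at the decoding centre, hold ACACTCG and a TACCGTA word side by side. rps-4 (chrIV:7084845-7085045, minus strand) holds GCGAGAC, on its minus strand as GTCTCGC. No exon of any gene lies in these windows, all of which are upstream of the annotated start. Capitals mark the 9 leading words of 7 bases described further on, on either strand.
rpl-3: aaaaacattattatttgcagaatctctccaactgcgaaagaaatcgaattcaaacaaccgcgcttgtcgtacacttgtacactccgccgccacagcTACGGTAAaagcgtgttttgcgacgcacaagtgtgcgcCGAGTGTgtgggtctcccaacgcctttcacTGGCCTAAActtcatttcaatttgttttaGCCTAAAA
rpl-20: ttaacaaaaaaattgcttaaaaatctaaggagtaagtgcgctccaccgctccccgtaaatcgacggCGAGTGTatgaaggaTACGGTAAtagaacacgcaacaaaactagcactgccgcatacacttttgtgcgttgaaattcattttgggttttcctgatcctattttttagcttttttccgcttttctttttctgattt
rpl-15: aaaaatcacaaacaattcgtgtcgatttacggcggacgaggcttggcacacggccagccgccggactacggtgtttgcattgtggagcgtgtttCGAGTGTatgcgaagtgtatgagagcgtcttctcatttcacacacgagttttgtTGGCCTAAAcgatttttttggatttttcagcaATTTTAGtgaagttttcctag
rpl-11.2: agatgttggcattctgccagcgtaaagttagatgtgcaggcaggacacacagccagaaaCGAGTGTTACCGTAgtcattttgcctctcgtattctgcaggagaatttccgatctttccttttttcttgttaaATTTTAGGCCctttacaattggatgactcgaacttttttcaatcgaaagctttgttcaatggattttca
rps-23: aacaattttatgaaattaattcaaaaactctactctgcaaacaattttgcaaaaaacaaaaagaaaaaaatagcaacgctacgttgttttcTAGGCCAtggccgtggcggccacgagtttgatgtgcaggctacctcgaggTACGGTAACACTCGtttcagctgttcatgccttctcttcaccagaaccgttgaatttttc
rps-4: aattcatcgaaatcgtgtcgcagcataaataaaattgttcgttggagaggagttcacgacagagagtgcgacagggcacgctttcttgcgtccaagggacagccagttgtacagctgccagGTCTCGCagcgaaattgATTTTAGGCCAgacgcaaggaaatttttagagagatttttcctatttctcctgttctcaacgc

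For contrast, the peak window of rheb-1 is given the same way (chrIII:9456252-9456452, read on the minus strand, no exon in the window). This gene encodes a small GTPase upstream of the TOR kinase, and it is not a ribosomal protein gene. Its peak had a signal of 57.6, a middling value, and capitals mark TGATAAG.
rheb-1: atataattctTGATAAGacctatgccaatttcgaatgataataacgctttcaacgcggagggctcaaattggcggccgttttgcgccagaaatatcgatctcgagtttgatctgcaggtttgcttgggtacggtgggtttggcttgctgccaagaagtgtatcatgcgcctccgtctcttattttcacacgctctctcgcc

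The strongest ribosomal protein peaks stood at large subunit genes. rpl-3, whose product lies close to the peptidyl transferase centre, had a signal of 213 and was rank 23 of 4739 optimal peaks. Next came rpl-20 (signal 125, rank 280), rpl-15 (119.4, rank 329) and then rpl-35 (100.1, rank 602). rpl-35 encodes a protein at the exit of the peptide tunnel, and its peak spans chrIII:7854628-7854750. These 4 peaks were also the narrow ones, with widths of 219, 183, 171 and 123 bp, while the other 31 all had the common width of 344 bp. Among small subunit genes the highest signals were 79.1 at rps-1, 76.9 at rps-12, 66.5 at rps-20 and 65.8 at rps-28. No small subunit gene reached the level of the 4 leading large subunit genes. The remaining 4 of the 12 strongest were rpl-43 at 78.0, rpl-11.2 at 61.4, rps-18 at 58.4 and rps-4 at 57.7. rpl-11.2 encodes a protein that binds 5S ribosomal RNA.

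The 35 distinct peaks had a median signal of 45.5 (exact 95% interval of the median 39.1 to 57.7, range 32.3 to 213), against 55.4 (54.0 to 57.0) for the 2199 other promoter peaks. The interval of the ribosomal protein median holds the median of the others. In the stronger 50% of the optimal list lay 12 of them and in the weaker 50% lay 23. The strongest 25% of the list held 5 and the weakest 25% held 13. The median was 47.5 over the 19 large subunit genes and 41.9 over the 18 small subunit genes, and their intervals overlapped. At the lower end of the list stood rps-24 at 33.1, rps-13 at 32.31 and rps-8 at 32.30. The lowest signal in the optimal list was 31.5. Just below it came rpl-6 at 31.2 in the pooled list, then rpl-41.2 and rps-0 at 30.7 each. rpl-6 encodes a large subunit protein, rpl-41.2 one of the smallest ribosomal proteins and rps-0 a small subunit protein.

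**Figure D1:**
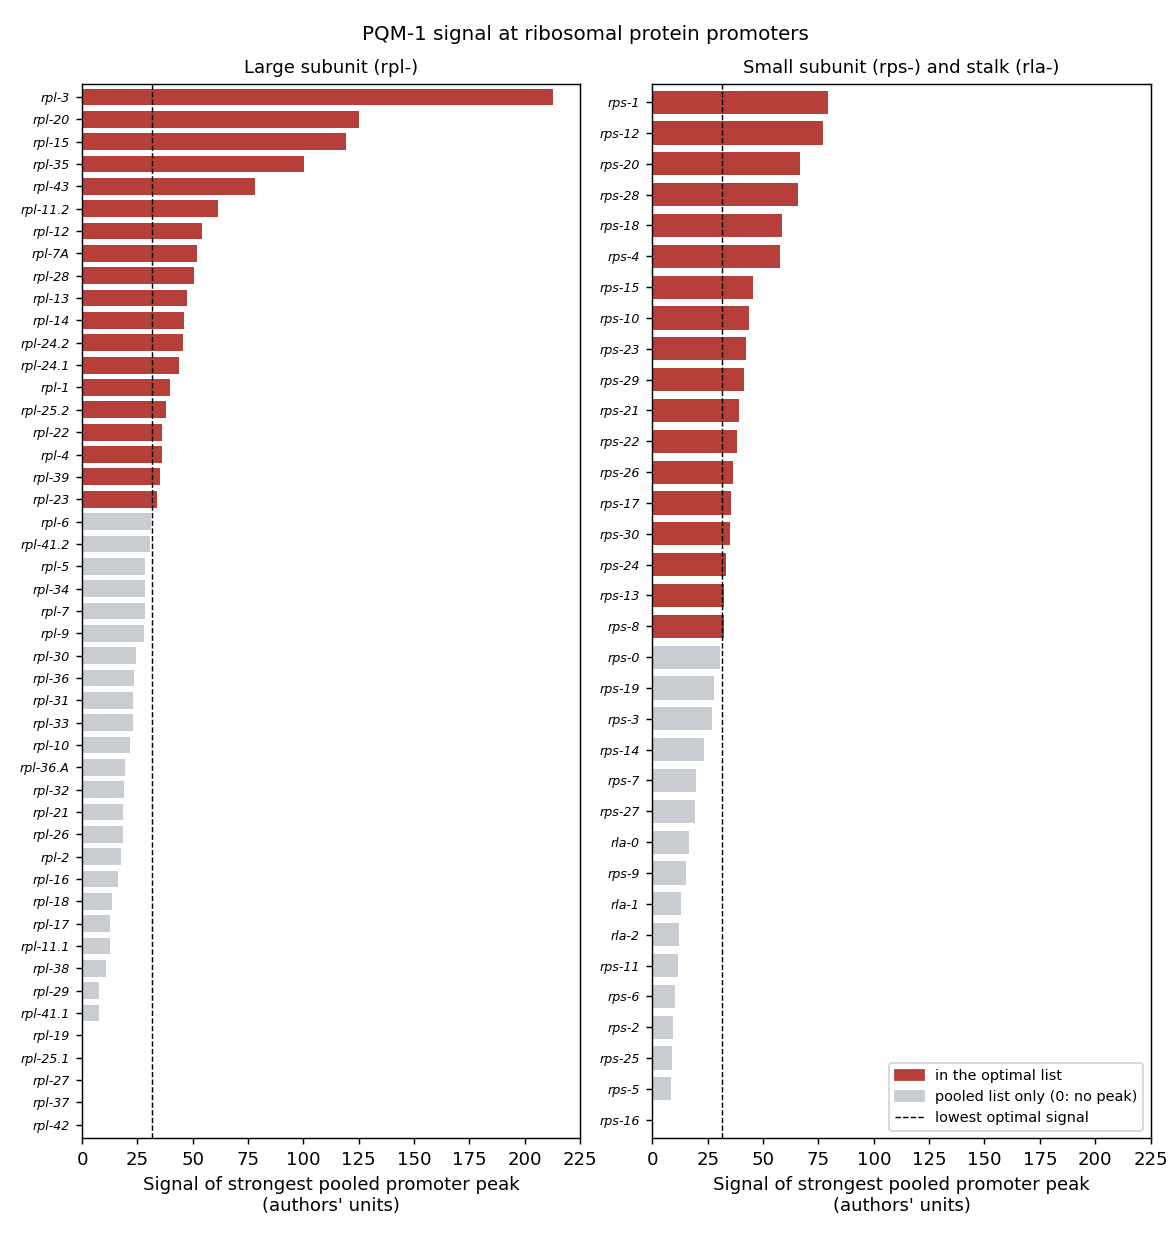
Each bar gives the signal (authors' units) of the strongest pooled promoter peak of 1 ribosomal protein gene, with large subunit genes on the left and small subunit and stalk genes on the right. The 37 genes with an optimal summit are in red, those with a weaker pooled peak only in grey, and the dashed line is the lowest optimal signal, 31.5. The bars run down from rpl-3 at 213, the 38 grey bars have a median of 18.8, and 6 genes have no bar.

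Most of the 44 genes without an optimal summit had a weaker peak in the pooled list. In the pooled list, which also holds the background peaks needed for the reproducibility step, 38 of them had a promoter summit, with signals from 7.82 to 31.2 and a median of 18.8. The authors' −log10 q of these peaks fell from 4.04 at rpl-6 to 0.0439 at rpl-41.1. The weakest thus had almost no statistical support, and a pooled summit alone does not show a bound site. All 75 genes together made 92.6%, against 35.2% of all protein-coding genes. In that list a summit stood at 42 of 47 large subunit genes, 30 of 31 small subunit genes and 3 of 3 stalk genes. The stalk genes had low pooled signals: 16.4 at rla-0, which encodes the base of the stalk, 12.9 at rla-1 and 11.8 at rla-2. Their −log10 q values were 1.55, 0.782 and 0.578 in the same order. rps-6, whose product is the substrate of S6 kinase in the TOR pathway, was low as well at 10.3 (−log10 q 0.337). Taking 2 times as many pooled peaks as the optimal list holds gave 62 of 81 genes, against 23.9% of all genes. Taking only the stronger 50% of the optimal peaks gave 12 of 81 (14.8%), against 6.34% of all genes.

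The share of ribosomal protein genes climbed as weaker pooled peaks were added. It was 4.94% among the 1000 strongest pooled peaks, against 2.57% of all protein-coding genes. It was 19.8% among 3000 peaks, against 8.13%, and 72.8% among 8000, against 21.1%. Of the comparison lists, the translation factors reached 24.4% in the optimal list (10 of 41) and 75.6% over all pooled peaks (31 of 41). Proteasome subunits reached 15.2% (5 of 33) and 78.8% (26 of 33). The 70 mitochondrial ribosomal protein genes, whose products form the separate ribosome of the mitochondrion, stood at 8.57% (6 genes) in the optimal list and 52.9% (37 genes) over all pooled peaks. Aminoacyl-tRNA synthetases had an optimal summit in 4 of 31 cases, ribosome biogenesis genes in 1 of 18 and TOR pathway genes in 2 of 9.

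**Figure D2:**
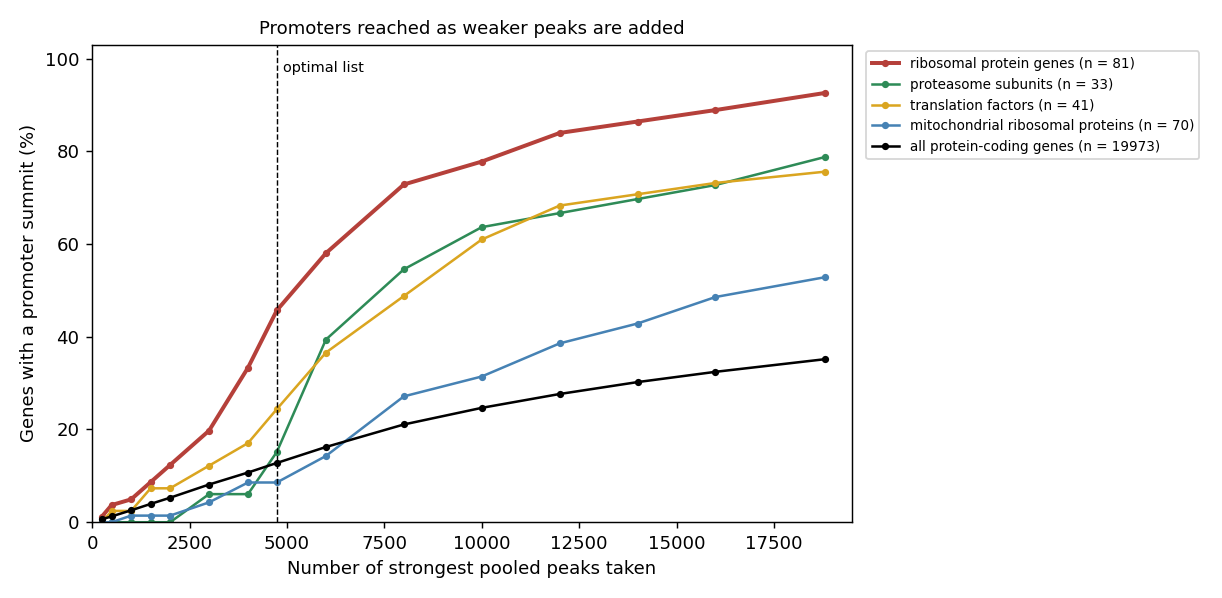
The horizontal axis is the number of strongest pooled peaks taken and the vertical axis the percentage of genes with a summit in the promoter, for ribosomal protein genes, 3 other lists and all protein-coding genes. The ribosomal protein line is at 45.7% at the optimal list (dashed) and at 92.6% over all pooled peaks, against 12.8% and 35.2% of all genes.

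No pooled promoter summit was found at rpl-19, rpl-25.1, rpl-27, rpl-37, rpl-42 and rps-16. At 3 of them, rpl-19, rpl-37 and rpl-42, neither replicate had one either. rpl-25.1 had a peak of signal 6.41 in replicate 2 only, and rpl-27 (2.11) and rps-16 (3.32) had one in replicate 1 only. In 4 of these 6 genes another protein-coding gene on the same strand ended within 500 bp upstream, the spacing of genes that can be transcribed together in C. elegans. Over all 81 members that arrangement was found at 9 genes, of which 1, rps-17, had an optimal summit. All protein-coding genes show it in 18.1% of cases (3615 genes). Of the 2516 genes outside the ribosomal protein set with an optimal summit, 337 (13.4%) had this arrangement. Among members it was found at 1 of 37 with an optimal summit (2.70%) and 8 of 44 without (18.2%). The exact interval of the 2.70%, 0.0684 to 14.2%, holds the 13.4%. Whether members differ from other genes in this respect thus cannot be decided on so few genes. For the 44 genes without an optimal summit in the promoter, the nearest optimal summit lay a median of 9382.5 bp from the start (range 1408 to 98979 bp), and none lay in the gene body.

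Genes that share a number differed in some cases and not in others. rpl-11.2 had an optimal peak of signal 61.4, whereas rpl-11.1 had only a pooled peak of 12.8. rpl-25.2 had an optimal peak of 38.0 and rpl-25.1 no pooled peak. rpl-24.1 and rpl-24.2 both had optimal peaks, at 43.8 and 45.5. rpl-41.2 stood at 30.7 and rpl-41.1 at 7.82, both in the pooled list only. rpl-36 (23.5, a peak shared with rps-14) and rpl-36.A (19.5) were also in the pooled list only. rpl-7A, at 51.9, had an optimal peak and rpl-7, at 28.3, did not, although these 2 names denote different ribosomal proteins. Different proteins may also stand behind rpl-36 and rpl-36.A, and behind rpl-24.1 and rpl-24.2. Ribosomal proteins outside the naming rule had no optimal summit: ubl-1 and ubq-2, which encode ubiquitin fused to a ribosomal protein, had pooled signals of 24.0 and 26.3, and rack-1, a scaffold on the small subunit, had 23.1.

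The summits occupied a narrow part of the promoter. Over the 37 genes they lay at a median of 284 bp upstream of the annotated start, with quartiles at 336 and 232 bp upstream and a range of 733 to 45 bp upstream. At other promoters the median was 202 bp upstream (2606 gene and summit pairs) and the quartiles were 493.5 and 77 bp upstream. The spread between quartiles was thus 104 bp in ribosomal protein promoters and 416.5 bp in the others. Among comparison lists with at least 4 pairs, it was 93 bp at proteasome subunits (5 pairs) and 118.5 bp at aminoacyl-tRNA synthetases (4 pairs). At mitochondrial ribosomal proteins it was 291.5 bp (6 pairs) and at translation factors 516.5 bp (10 pairs). A narrow spread was thus not found at ribosomal protein genes alone, on these few pairs. In the band from 400 to 200 bp upstream lay 24 of 37 ribosomal protein summits (64.9%), against 518 of the other pairs (19.9%). None of the ribosomal protein summits lay downstream of the start, against 242 of the other pairs (9.29%). The members farthest upstream were rpl-43 at 733 bp, rps-18 at 685 bp, rps-29 at 604 bp and rpl-35 at 465 bp. The closest were rpl-7A at 45 bp and rpl-12 at 58 bp.

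The weaker pooled peaks of ribosomal protein promoters were centred at a similar distance and spread more. Their 51 gene and summit pairs had a median of 279 bp upstream, and 23 (45.1%) lay in the band, against a median of 277 bp and 20.1% for the weaker pairs of other promoters. The count of genes with a summit depended little on where the promoter was cut. With 500 bp upstream it was 34 (against 9.93% of all genes), with 2000 bp upstream 37 (16.8%), and with the start of any annotated transcript 37 (14.2%). With the midpoint of the peak in place of the summit it was 37 (12.8%).

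**Figure D3:**
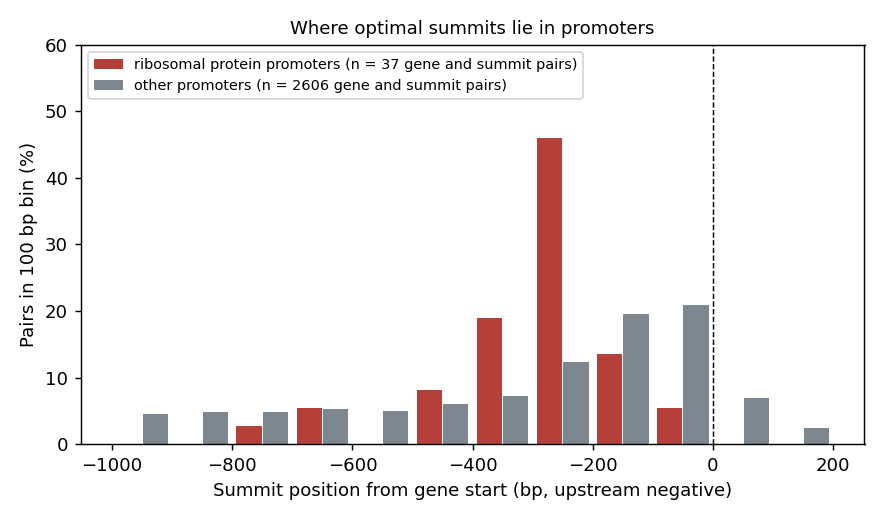
The horizontal axis is the position of the optimal summit from the gene start (bp, upstream negative) in bins of 100 bp, and the vertical axis the percentage of gene and summit pairs, for ribosomal protein promoters in red (37 pairs) and other promoters in grey (2606 pairs). Of the ribosomal protein pairs, 45.9% fall in the bin from 300 to 200 bp upstream, whereas the other pairs spread over the whole promoter and are densest near the start.

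Many of the peaks lay between a ribosomal protein gene and another gene. Of the 35 peaks, 23 (65.7%) were also in the promoter of another protein-coding gene, against 372 of 2199 other promoter peaks (16.9%). At 23 of the 35 the nearest start was that of a ribosomal protein gene. The partners included ifet-1 at the rps-1 peak, ska-3 at rps-12, ekl-4 at rps-20, lin-54, a DNA-binding subunit of the DRM complex, at rpl-12, and ify-1, the worm securin, at rpl-22. rpl-28 shared its peak with mrpl-49, a mitochondrial ribosomal protein gene. Which of the partners a site serves was not tested. When each summit was given only to the nearest protein-coding start, an alternative chosen after seeing the data, 23 of 81 ribosomal protein genes kept one (28.4%), against 10.7% of all genes.

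Members with and without a peak often had a divergent neighbour. A protein-coding start on the opposite strand within 1000 bp upstream was present at 24 of the 37 genes with an optimal summit (64.9%) and 24 of the 44 without (54.5%), against 17.7% of all protein-coding genes. Members with such a neighbour had an optimal summit in 24 of 48 cases and members without one in 13 of 33 (39.4%). In all protein-coding genes the corresponding shares were 17.5% and 11.8%. Small nucleolar RNA genes, which guide the modification of ribosomal RNA and often sit in introns, lay inside 13 of the 81 members, against 192 of all 19973 protein-coding genes (0.961%). Of these 13 members 9 had an optimal summit, against 41 of the 192 (21.4%), a number that includes the members. By chromosome, an optimal summit was found at 12 of 25 members on I, 2 of 10 on II, 9 of 18 on III, 10 of 18 on IV, 3 of 8 on V and 1 of 2 on X. The shares of all protein-coding genes on these chromosomes, in the same order, were 10.9%, 12.4%, 13.8%, 11.7%, 12.4% and 16.3%.

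The element associated with PQM-1 was absent from these windows. TGATAAG, searched on both strands, was in 0 of the 35 ribosomal protein windows of 201 bp, which allows a share of up to 8.57%. It was in 953 of the 2199 windows of other promoter peaks (43.3%, exact 95% interval 41.3 to 45.4%). The GATA core (GATAA or GATAG after an A or a T, so that every TGATAAG holds one) was in 8 of 35 windows (22.9%, 10.4 to 40.1%), against 1778 of 2199 (80.9%, 79.1 to 82.5%). The 8 windows belonged to rps-18, rpl-7A, rpl-14, rpl-24.2, rps-15, rpl-1, rps-8 and the peak shared by rpl-24.1 and rps-10. An absent word says only that these letters are not in the window.

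The contrast was present at both strong and weak peaks. Among peaks of the weaker 50% of the list, TGATAAG was in 0 of 23 ribosomal protein windows and 33.8% of the others, and the GATA core in 7 of 23 (30.4%) and 71.6%. Among peaks of the stronger 50%, they were in 0 of 12 and 1 of 12 (8.33%) ribosomal protein windows, against 53.0% and 90.2% of the others. Below the optimal list TGATAAG was in 1 of 50 ribosomal protein windows, at rps-2, against 11.6% of other promoter windows. There the GATA core was in 20 of 50 (40.0%), against 46.6%. With no regard to peaks, windows of the same size centred 284 bp upstream of the start held TGATAAG in 0 of 81 members and 4.41% of all genes, and the GATA core in 23 of 81 (28.4%) and 38.4%. The ribosomal protein windows were richer in G and C, with 41.6%, against 37.1% in windows of other promoter peaks.

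The other words searched stood at similar levels in both sets. GTAAACA, the core of the DAF-16 binding element, was in 1 ribosomal protein window, that of rps-8 (2.86%), against 4.96% of the other windows. GAGAGA was in 7 of the 35, against 25.1%. CACGTG, the E-box bound by basic helix-loop-helix factors, was in 1, that of rpl-14 (2.86%), against 5.96%. Few peaks at other translation genes held TGATAAG: 1 of 10 at translation factors, 0 of 6 at mitochondrial ribosomal proteins and 0 of 4 at synthetases. Both peaks at TOR pathway genes, those of rheb-1 (57.6) and raga-1 (33.3), held it. The GATA core was in 3 of 10 windows at translation factors, 1 of 4 at synthetases and 1 of 5 at proteasome subunits. It was in 4 of 6 at mitochondrial ribosomal proteins and in every window at TOR pathway and ribosome biogenesis genes. The ifet-1 window is also the rps-1 peak and the mrpl-49 window the rpl-28 peak, and neither held the core. The translation factor and mitochondrial lists are thus not separate from the members. No ribosomal protein peak was shared with a synthetase or proteasome gene. On the few peaks of those lists, a low share of the core was also seen outside ribosomal protein genes.

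**Figure D4:**
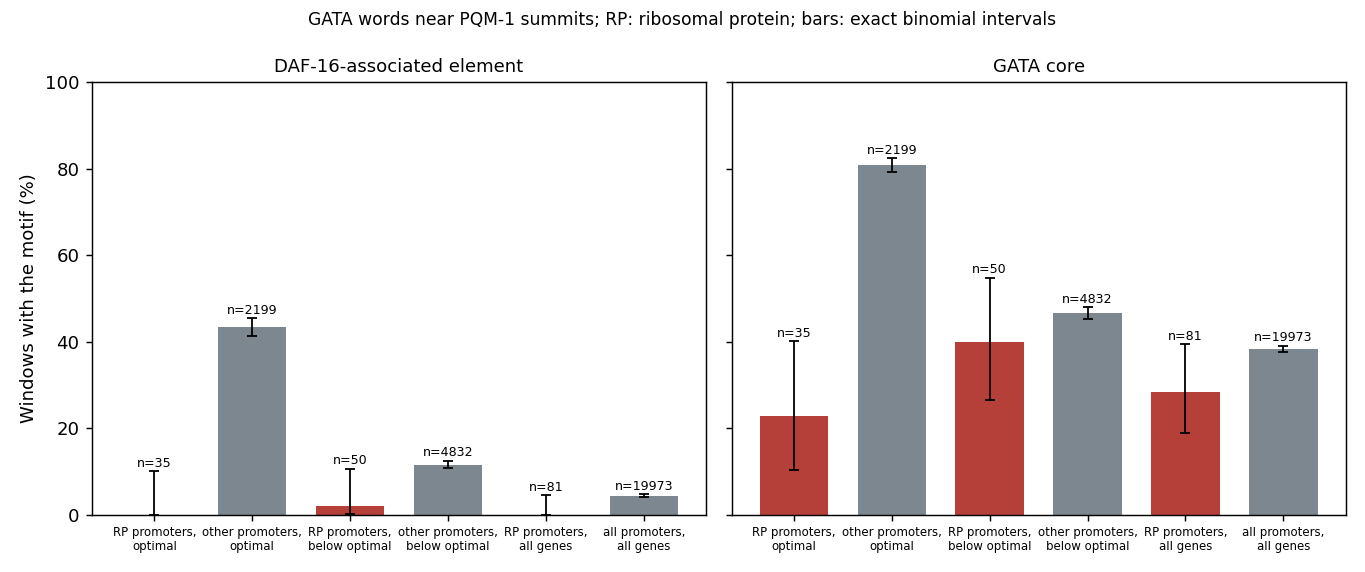
The vertical axes give the percentage of 201 bp windows that hold the DAF-16-associated element (left) or any form of the GATA core (right), with exact 95% intervals, for ribosomal protein (RP) promoters in red and other or all promoters in grey. In the optimal list the element is in 0% of RP windows and 43.3% of other windows, and the core in 22.9% and 80.9%; below the list and over all genes the red and grey bars lie closer together.

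All words of 7 bases, with reverse complements merged, were then ranked by the difference between their share in the 35 ribosomal protein windows and in the 2199 other windows. Because the words were picked for this difference, their shares are a description. The 9 leading words fell into 4 groups. Overlapping words around TTAGGCC (5 words) were in 19 of 35 windows (54.3%), against 198 of 2199 others. TACCGTA and its overlapping word ACGGTAA were in 12 (34.3%), against 2.59%. ACACTCG was in 11 (31.4%), against 2.05%, and GCGAGAC in 10 (28.6%), against 2.09%. At least 1 of the 9 words was in 31 of 35 windows (88.6%), against 14.8% of the other windows. The 4 windows with none were those of rps-12, rpl-12, rps-15 and rpl-23.

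Where a window held the TTAGGCC group, the word lay a median of 64 bp downstream of the summit, and in 17 of 19 windows it was between summit and gene start, at a median of 218 bp upstream of the start. The rpl-15 window shows this arrangement, with TGGCCTAAA well to the right of centre. The TACCGTA words lay on both sides of the summit, with a median of 2.25 bp downstream and quartiles of -15.5 and 29.5 bp, upstream being negative. ACACTCG had a median of 19 bp downstream (quartiles -4 and 33 bp) and GCGAGAC one of 22 bp. In the rpl-11.2 window CGAGTGT, the reverse complement of ACACTCG, was directly followed by TACCGTA. That joined form was in 6 of the 35 ribosomal protein windows, against 1 of the 2199 others. The WBcel235 genome holds it 17 times in all. Of these occurrences 15 were in a promoter of some protein-coding gene. Ribosomal protein promoters, which cover 0.0940% of the nuclear genome, held 8. Those ribosomal protein promoters belonged to 9 genes (rpl-1, rpl-11.2, rpl-21, rpl-24.1, rpl-34, rps-10, rps-13, rps-18 and rps-23), and all of them except rpl-21 and rpl-34 had an optimal summit. The joined form was made from words picked in these same windows, so its counts are a description and no independent comparison.

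Members without an optimal summit also held these words. In whole promoters ACACTCG was found at 15 of 37 members with an optimal summit (40.5%) and 6 of 44 without (13.6%), against 5.97% of all promoters. The TACCGTA words were found at 14 of 37 (37.8%) and 9 of 44 (20.5%), against 19.6%, so members without a summit stood near the share of all promoters. GCGAGAC was found at 12 of 37 (32.4%) and 17 of 44 (38.6%), against 7.81%, and the TTAGGCC group at 30 of 37 and 33 of 44, against 57.1%. The words were picked in the windows of members with a summit, so these counts are no independent comparison of the 37 and the 44. The weaker pooled peaks of ribosomal protein promoters held at least 1 of the 9 words in 26 of 50 windows (52.0%), against 18.4% of the weaker peaks of other promoters.

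Both biological replicates detected all 35 peaks, with a summit within 100 bp in each. The optimal list was chosen for reproducibility, and 4703 of all its 4739 peaks overlapped a peak in both replicates. Detection of the 35 was thus no trait of these genes. Signals in the replicate lists are on separate scales, so each peak was given its percentile among the 4703 optimal peaks found in both. rpl-3 had signals of 56.7 and 158 in replicates 1 and 2, at percentiles of 98.8 and 99.6. rpl-20 (38.6 and 84.5) and rpl-15 (35.5 and 86.1) also kept percentiles over 90 in both. rpl-35 (39.1 and 61.8) stood at percentile 93.5 in replicate 1 and 80.2 in replicate 2. Across the 35 peaks Spearman's rho between replicates was 0.63 and Pearson's r 0.88. Across all 4703 peaks they were 0.58 and 0.73. Over the 23 ribosomal protein peaks of the weaker 50% of the list alone rho was 0.043 and r 0.0064, so the values over all 35 rest on the span from weak to strong peaks. Over the 1086 other promoter peaks of that range they were -0.18 and -0.15. The weaker 50% is cut on the pooled signal of both replicates, and a cut of this kind lowers such coefficients by itself. The points of each coefficient share 2 sets of libraries.

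Ribosomal protein peaks ranked lower in replicate 2 than in replicate 1. Their median percentile was 47.5 in replicate 1 and 28.0 in replicate 2. The difference, replicate 2 minus replicate 1, had a median of -13.3 points (exact 95% interval of the median -18.8 to -1.13), with 25 peaks lower and 10 higher in replicate 2. That interval covers the spread over peaks, all measured in the same 2 replicates, and not the spread between replicates. Other promoter peaks had a median difference of 0.54 points. Within the weaker 50% of the list the median was -14.1 points for 23 ribosomal protein peaks and -3.35 points for 1086 others. The largest downward differences were at rpl-4 (-56.7 points, signals 19.4 and 17.4 in replicates 1 and 2), rps-26 (-44.5, 16.8 and 19.5), the rpl-39 and rps-30 peak (-43.7, 16.6 and 19.3), rps-22 (-43.2, 16.1 and 17.8) and rpl-12 (-42.6, 22.6 and 30.1). rpl-4 and rpl-39 encode proteins that line the peptide exit tunnel. rps-26 encodes a protein near the messenger RNA exit channel, and rps-30 one made as a fusion to a ubiquitin-like domain. In the other direction rpl-24.2 differed by 27.0 points and rps-15 by 24.4. With 2 replicates, and 2 libraries merged in 1 of them, a difference between worms and one between libraries cannot be told apart.

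**Figure D5:**
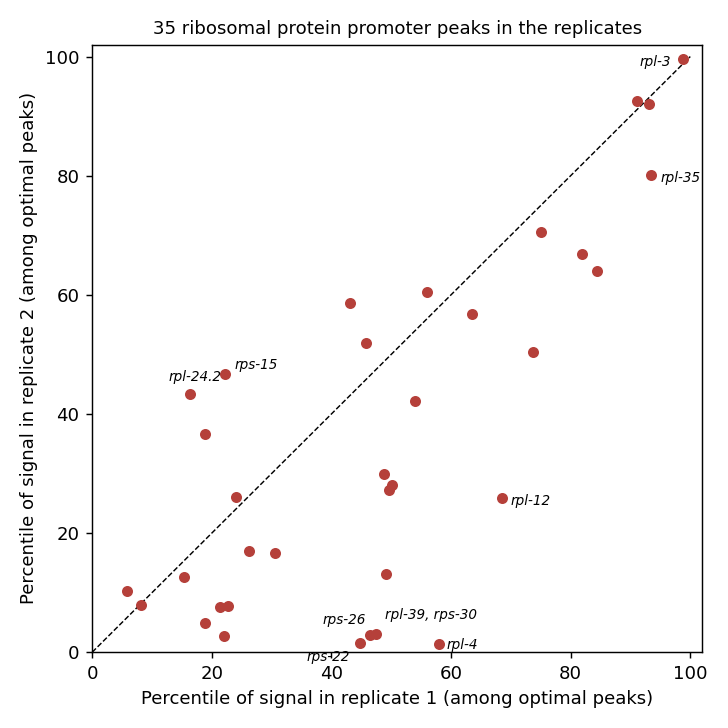
Each point is 1 of the 35 ribosomal protein peaks, with its signal percentile among optimal peaks in replicate 1 on the horizontal axis and in replicate 2 on the vertical axis, and the dashed line marks equal percentiles. The 4 strongest peaks are at the upper right, and 25 of the 35 points lie below the line, with rpl-4, rps-26, rps-22 and the rpl-39 and rps-30 peak near the bottom.

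Gene calls in single replicates showed the same order. With as many of the strongest peaks of each replicate as the optimal list holds, 40 of 81 members had a promoter summit in replicate 1 and 29 in replicate 2, against 12.7% of all genes in either. Both replicates gave 25 members, replicate 1 alone 15 and replicate 2 alone 4. In all protein-coding genes the 2 single-replicate counts were almost equal, at 609 and 598. Of the 37 members with an optimal summit, 24 were among the strongest peaks of both replicates, 12 of 1 replicate and 1, rps-13, of neither. rpl-7 had signals of 16.5 and 33.5 and was among the strongest of both replicates without being in the optimal list. rps-19, at 26.1 in replicate 1 and 9.57 in replicate 2, was among the strongest of replicate 1 alone. With all peaks of each list, which include background peaks, 75 members had a summit in replicate 1 (92.6%, against 38% of all genes) and 72 in replicate 2 (88.9%, against 34.8%). Both lists held 69 of them.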

How the data were processed

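PQM-1 ChIP-seq of L4 larvae was deposited as peak lists on ce11: an optimal list of 4739 peaks thresholded by the irreproducible discovery rate, a pooled list (18821) and lists of replicate 1 (24037, both libraries in 1 alignment) and replicate 2 (19038), per the readmes deposited with them. The signal of a peak and its −log10 q value are the authors' own, deposited as such. The −log10 q is capped (4.04 throughout the optimal list), so peaks were ranked by signal. The optimal list holds the strongest pooled signals, with the same values, so these lists share a scale. Signal was not compared with or between the replicate lists. Which peak caller, aligner and threshold were used is not given in the sources used here. The lists hold no read counts, so depth is unknown. Lists on ce10 and the control library were not used here.

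Summits were assigned to promoters of Ensembl release 115 genes, and words were counted on both strands in 201 bp windows of the WBcel235 genome. Shares carry exact Clopper-Pearson intervals at 95%, and a share of 0 the limit that a count of 3 allows. The assignment of summits to promoters was tested on simulated data with planted positions. The word search was not tested in this way. No significance test was run, since there is 1 group. The gene class, comparison lists and words were chosen with earlier results of these data known. Named genes were the 12 strongest peaks, the 3 weakest, the 3 next below the list, the 5 largest replicate differences, windows with TGATAAG and numbered gene pairs; others named stand in a count of few members, at an extreme of a range or beside a shared peak, and were chosen after their values were seen. Alternatives changed the peak list, promoter, window and replicate. Python 3.11.15, pandas 2.3.3, numpy 2.4.6 and scipy 1.17.1 were used.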

Additional observations from a re-analysis of the deposited data

How the results depend on the processing

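The count of ribosomal protein genes with an optimal summit (37) was 12 with the stronger 50% of the optimal peaks, 62 with 2 times as many pooled peaks and, under alternatives chosen after seeing the data, 23 with the nearest start only and 75 with all pooled peaks. Fewer or more peaks move it by construction. Large subunit genes (19) were 6 and 36, and small subunit genes (18) were 6, under the same changes of 50% and, for the large subunit, 2 times the peaks. Their median signal (45.5) was 77.5 and 35.1, again by construction. The GATA core share (22.9%) was 8.57% with 50 bp to each side of the summit and 8.33% with the stronger 50%. Without replicate 1 or without replicate 2, the counts ranged from 29 to 40 for all members, 17 to 22 for the large and 12 to 18 for the small subunit, and the GATA core share from 18.4 to 32.1%. TGATAAG stayed at 0% without either replicate and in windows of 50 or 150 bp to each side. The replicate difference of -13.3 points ranged from -13.0 to -8.11 points under its 3 alternatives. Median signal without a replicate was not run, because each replicate list has its own scale. No paired analysis was possible because there is 1 group. Counts near the threshold are limited by the narrow range of signals there, 32.3 at the weakest member inside the list against 31.5 at the end of the list. Depth could not be assessed.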
